A study of Mus musculus with 4 samples.

Results

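The 10 genes described here form the path by which cells show pieces of their own proteins at the surface on MHC class I molecules: *H2-K1*, *H2-D1*, *B2m*, *Tap1*, *Tap2*, *Tapbp*, *Psmb8*, *Psmb9*, *Erap1* and *Nlrc5*. They were selected by gene symbol, and all 10 were found among the 24391 gene symbols counted. RNA-seq had been performed on 4 libraries of primary mouse embryonic fibroblasts (MEFs), 2 labelled wild-type (WT) and 2 labelled *Phf2* KO, to ask which genes change when the histone reader Phf2 is lost. All 4 carried the genotype Phf2 flox/flox, ERCre/+, that is, floxed *Phf2* together with the inducible recombinase CreERT2 expressed from the *Rosa26* locus. Only the *Phf2* KO libraries carried the label tamoxifen, and the protocol gave 0.5 µM 4-hydroxytamoxifen (4-OHT) for 7 days in medium with 2% charcoal-treated serum. The MEFs came from E13.5 embryos and were held in quiescence. No library combined 4-OHT with intact *Phf2* by the labels, so that the loss of *Phf2* and exposure to 4-OHT cannot be told apart. How many embryos gave each library was not stated in the labels.

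MHC class I molecules consist of a heavy chain, a small light chain and a short peptide. The peptides are cut by the proteasome, whose immunoproteasome form holds exchanged catalytic subunits, and are carried by a transporter into the endoplasmic reticulum, where they are trimmed and loaded before the complex moves to the surface for inspection by cytotoxic T cells. Fibroblasts transcribe many genes of this path at a basal rate and raise them when they sense interferons. Control elements known from class I promoters are kappa B, interferon response and SXY elements, the last bound by the Nlrc5 enhanceosome.

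Promoter stretches of the heavy and light chain genes are shown because they hold the control elements for which the path is known. Of the 10 genes, 8 had an entry in the RefSeq promoter table (GRCm38.p6), which spans 250 bases before to 50 after each start. Each line runs 5′ to 3′ on the strand of the gene. Capitals mark matches to 6 of the 7 motifs searched on both strands, which were chosen with the sequences in view.
H2-K1: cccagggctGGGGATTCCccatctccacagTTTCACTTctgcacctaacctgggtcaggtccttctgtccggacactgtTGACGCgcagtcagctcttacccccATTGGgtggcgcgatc
H2-D1: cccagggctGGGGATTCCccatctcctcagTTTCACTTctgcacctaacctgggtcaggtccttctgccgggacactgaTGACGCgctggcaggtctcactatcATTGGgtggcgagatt
B2m: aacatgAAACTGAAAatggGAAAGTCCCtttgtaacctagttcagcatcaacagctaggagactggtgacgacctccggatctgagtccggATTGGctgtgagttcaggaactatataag
The *H2-K1* stretch is chr17:34000348-34000467 on the minus strand and ends at the base before its start, the *H2-D1* stretch is chr17:35262914-35263033 on the plus strand and covers positions -180 to -61, and the *B2m* stretch is chr2:122147543-122147662 on the plus strand, positions -144 to -25.

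The *H2-K1* and *H2-D1* stretches were identical at 107 of 120 bases (89.2%). Both held GGGGATTCC, from the kappa B site of the class I enhancer, which was found in 82 of 32851 promoters (0.25%). They also shared TTTCACTT, an interferon response element found in 1.6% of promoters, TGACGC, an X2 box found in 7.4%, and CCAAT, which was printed here as its reverse complement and found in 37.4%. *B2m* held a match to TTTCNNTTT, the interferon response core (10.6% of promoters), a kappa B match to GGGNNTTTC (4.36%) and CCAAT. TTTCNNTTT was also found in *Erap1*, where it overlapped a match to TTTCACTT, and TTCNNNGAA, the gamma interferon activated sequence (8.3% of promoters), was found in *Psmb8*. Such matches describe these letters only.

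*Tap1* and *Psmb9* lie head to head, and their start sites in RefSeq are 225 bases apart. The interval, chr17:34187331-34187555 read on the strand of *Tap1*, is shown since it lies before the RefSeq starts of both genes, with the CCAAT match in capitals.
Tap1 and Psmb9: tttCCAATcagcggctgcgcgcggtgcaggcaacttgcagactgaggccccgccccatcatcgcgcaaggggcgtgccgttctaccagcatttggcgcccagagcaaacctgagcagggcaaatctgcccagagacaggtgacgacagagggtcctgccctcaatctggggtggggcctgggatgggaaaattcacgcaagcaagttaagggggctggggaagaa
Between the 4 libraries the level of *Tap1* varied by 1.05-fold from lowest to highest and that of *Psmb9* by 2.22-fold.

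The libraries held between 21094743 and 26094268 counts, and 3 counts, taken as the limit that a count of 0 allows, corresponded to 0.116 to 0.145 CPM, the unit of counts scaled to library size. *Phf2* itself gave 3244 and 3680 counts in the WT libraries, and 1454 and 2158 in those of *Phf2* KO, or 138.2 ± 5.11 and 80.0 ± 13.9 CPM (SD, n = 2), so that 57.9% of the WT level remained. Its log2 fold change of -0.79 (SE 0.14) had an unadjusted p of 0.00332 and an adjusted p of 0.999 in edgeR's quasi-likelihood test. The counts cover all exons of *Phf2*, including any that recombination leaves in place. All 9 fibroblast markers examined were counted in every library, with sums of 57190 to 68857 CPM led by collagens. *Xist* was counted 10042 and 8336 times in replicates 1 of WT and *Phf2* KO and 3 and 12 times in replicates 2, and *Ddx3y* 6 and 10 times in replicates 1 and 1271 and 1295 times in replicates 2, so replicate 1 was female and replicate 2 male in both groups, and the replicates of a group came from different embryos.

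The 10 genes spanned a wide range of levels, which were compared per kb of exon so that gene length does not enter. *B2m*, the light chain shared by all class I molecules, was the most abundant at 919.6 to 1137 CPM per kb over the 4 libraries. *Tapbp* followed at 53.0 to 65.1 CPM per kb, and *H2-K1* (22.8 to 43.5) and *H2-D1* (19.2 to 45.3) came next with overlapping ranges. *Tap2* lay at 12.8 to 13.9 and *Tap1* at 5.99 to 6.31 CPM per kb. *Erap1* (3.72 to 4.37) overlapped *Psmb8* (2.30 to 5.94), and *Psmb9* (0.495 to 1.10) overlapped *Nlrc5* (0.211 to 0.659) at the bottom. All other neighbours in this order had ranges that did not overlap. Exon lengths combine all transcripts annotated on NCBIM37 (mm9), 3660 bases for *Psmb9* and 5476 bases for *Tap1*, and the order depends on that annotation.

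**Figure D1:**
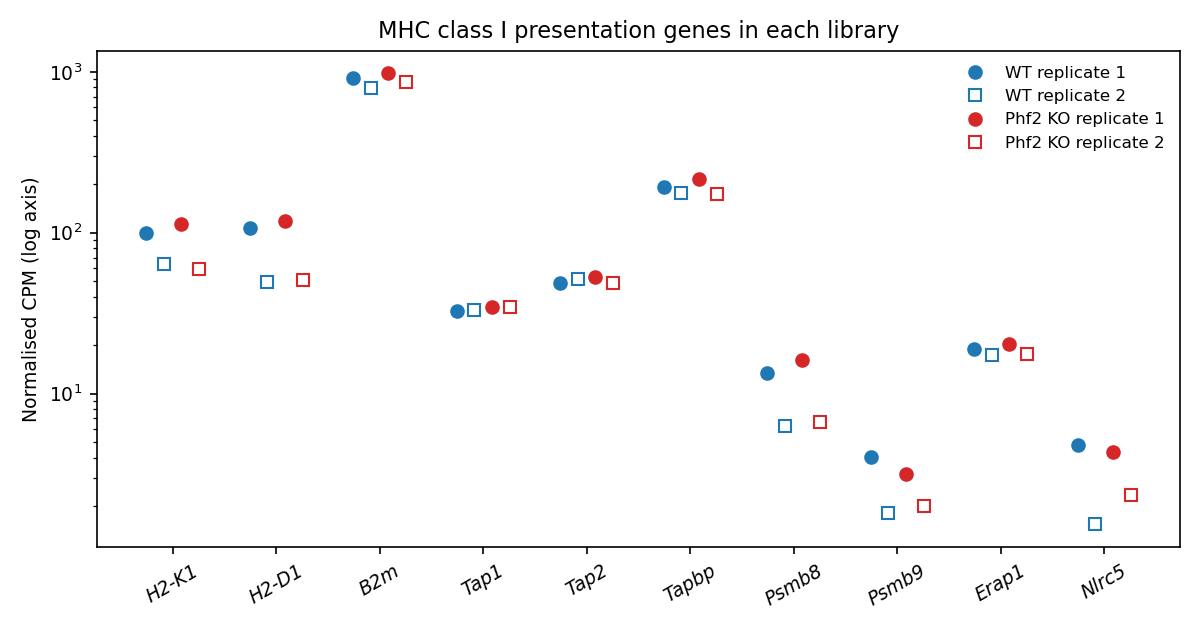
Normalised CPM (log axis) of the 10 genes in each library, with blue for WT, red for *Phf2* KO, filled circles for replicate 1 and open squares for replicate 2. *B2m* lies highest at 790.8 to 978.2 CPM, and for *H2-K1*, *H2-D1*, *Psmb8*, *Psmb9* and *Nlrc5* the circles of both colours lie above the squares.

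None of the 10 genes was called different between *Phf2* KO and WT at an adjusted p under 0.1. Over all 13668 genes tested by edgeR, 0% were called higher and 0.00732% lower (1 gene), so a share of 0 among the 10 lies at the background. DESeq2 and limma-voom called 0 of the 10 as well, against a background of 0.0623% higher and 0.337% lower in DESeq2. At an unadjusted p under 0.05, edgeR counted 0 of the 10 genes, while 1.54% of all genes were higher and 2.67% lower at that threshold. The adjusted p was 0.999 for each of the 10, and the lowest unadjusted p was 0.444, for *B2m*. With 2 libraries against 2, an exact two-sided permutation test of a single gene cannot go below 0.333. The median log2 fold change of the 10 genes was 0.07 (range -0.17 to 0.21), beside 0.0054 over all genes, and their median absolute change was 0.081, beside 0.122 over all genes.

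Of the chains, *H2-K1* encodes a classical heavy chain (chr17:34132962-34137278 on mm9, minus strand, 5 exon blocks). Replicates 1 and 2 gave 2388 and 1666 counts from WT, then 2352 and 1431 from *Phf2* KO, or 99.1, 64.2, 113.5 and 59.5 CPM, an order kept for the genes that follow. Both replicates 1 were above both replicates 2, and the groups overlapped. The group means were 81.6 ± 24.7 CPM in WT and 86.5 ± 38.2 CPM in *Phf2* KO (SD, n = 2), a log2 fold change of 0.08 (SE 0.38, 95% interval -0.91 to 1.08).

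*H2-D1*, the other classical heavy chain gene counted here (chr17:35399675-35404444, plus strand, 7 exon blocks), also had both replicates 1 above both replicates 2. It gave 2583 and 1289 counts in the WT libraries, and 2431 and 1221 in those of *Phf2* KO, or 107.2, 49.7, 117.3 and 50.8 CPM. WT and *Phf2* KO libraries of the same number lay close together, while replicate 1 was 2.16-fold above replicate 2 in WT and 2.31-fold in *Phf2* KO. Means of 78.4 ± 40.7 and 84.1 ± 47.0 CPM (SD, n = 2) gave a log2 fold change of 0.10 (SE 0.54, 95% interval -1.33 to 1.53).

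*B2m* (chr2:121973422-121978819, plus strand, 4 exon blocks) varied less. It gave 22064 and 20521 counts in the WT libraries, and 20268 and 20696 in those of *Phf2* KO, or 915.4, 790.8, 978.2 and 860.9 CPM. The groups overlapped, since WT replicate 1 was above *Phf2* KO replicate 2. The means were 853.1 ± 88.1 and 919.6 ± 82.9 CPM (SD, n = 2), and the log2 fold change was 0.11 (SE 0.13, 95% interval -0.23 to 0.45). Heavy chain transcripts were few beside *B2m*: per kb, *H2-K1* stood at 3.57% and 2.68% of *B2m* in WT libraries and 3.83% and 2.28% in *Phf2* KO libraries, and *H2-D1* at 3.89% and 2.09% for WT libraries and 3.99% and 1.96% for *Phf2* KO libraries. These ratios separated by replicate number in both groups.

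The heavy chain genes are near copies of each other, so reads can be shared between them. Of all 50-base windows in their exons, 83.0% for *H2-K1* and 85.4% for *H2-D1* occurred once in the NCBIM37 genome by exact match, compared with 97.5% to 100% for the other 8 genes. Among 27 other class I heavy chain genes, 10 had no count in any library, and these included genes with few windows found once (*H2-T9*, 31.9%, and *H2-Q7*, 34.8%) as well as *H2-M1*, *H2-M9* and *H2-M11*, with 98.4%, 98.0% and 100%. Values of *H2-K1* and *H2-D1* are thus less certain than those of the other genes, in all 4 libraries alike.

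The transporter and its loading factor came next in the path. *Tap1* (chr17:34324498-34334170, plus strand, 8 exon blocks) and *Tap2* (chr17:34340472-34353266, plus strand, 13 exon blocks) encode the subunits that pump peptides into the endoplasmic reticulum. *Tap1* gave 790 and 860 counts in the WT libraries, and 716 and 829 in those of *Phf2* KO, or 32.8, 33.1, 34.6 and 34.5 CPM. It was the only one of the 10 genes whose groups did not overlap, with both *Phf2* KO libraries above both WT libraries, an arrangement that 15.5% of all genes tested also had (18% had the opposite one). The difference was small: 33.0 ± 0.259 against 34.5 ± 0.0503 CPM (SD, n = 2), a log2 fold change of 0.07 (SE 0.089, 95% interval -0.17 to 0.30). Counting error alone, 0.074 and 0.070 log2 units for the differences of replicates 1 and 2, was about as large as the 0.08 and 0.06 measured.

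*Tap2* gave 1174 and 1333 counts in the WT libraries, and 1092 and 1163 in those of *Phf2* KO, or 48.7, 51.4, 52.7 and 48.4 CPM. These overlapped between groups, with means of 50.0 ± 1.88 and 50.5 ± 3.06 CPM (SD, n = 2) and a log2 fold change of 0.01 (SE 0.095, 95% interval -0.24 to 0.27). *Tap1* stood at 46.5% and 44.5% of *Tap2* per kb in WT and at 45.3% and 49.2% in *Phf2* KO, so the subunits kept a similar ratio in each library. *Tapbp* (chr17:34052844-34066235, plus strand, 8 exon blocks) encodes tapasin, which bridges the transporter and the empty class I molecule. It gave 4633 and 4585 counts in the WT libraries, and 4449 and 4204 in those of *Phf2* KO, or 192.2, 176.7, 214.7 and 174.9 CPM. *Phf2* KO replicate 1 was the highest library and *Phf2* KO replicate 2 the lowest. The means were 184.5 ± 10.97 and 194.8 ± 28.2 CPM (SD, n = 2), with a log2 fold change of 0.08 (SE 0.13, 95% interval -0.27 to 0.43).

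Among the genes that make peptides, *Psmb8* (chr17:34334666-34338399, plus strand, 6 exon blocks) and *Psmb9* (chr17:34318932-34324709, minus strand, 4 exon blocks) encode catalytic subunits of the immunoproteasome, and *Psmb8* lies just after *Tap1*. *Psmb8* gave 324 and 163 counts in the WT libraries, and 337 and 159 in those of *Phf2* KO, or 13.4, 6.28, 16.3 and 6.61 CPM. Replicate 1 was 2.14-fold above replicate 2 in WT and 2.46-fold in *Phf2* KO, and the groups overlapped. Means of 9.86 ± 5.06 and 11.4 ± 6.82 CPM (SD, n = 2) gave the highest log2 fold change of the 10 genes, 0.21, with an SE of 0.57 and a 95% interval of -1.29 to 1.72.

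*Psmb9* gave 97 and 47 counts in the WT libraries, and 66 and 48 in those of *Phf2* KO, or 4.02, 1.81, 3.19 and 2.00 CPM. WT replicate 1 was highest and WT replicate 2 lowest. It was the only one of the 10 with a log2 fold change below 0, at -0.17 (SE 0.48, 95% interval -1.45 to 1.11) from means of 2.92 ± 1.56 and 2.59 ± 0.840 CPM (SD, n = 2). In the mm9 annotation, *Psmb9* shared 212 exon bases with *Tap1* on the opposite strand, although their RefSeq starts lie 225 bases apart. The 212 shared bases were 5.79% of the exon bases of *Psmb9* and 3.87% of those of *Tap1*. *Psmb8* shared 187 (6.83%) and *Tap2* 165 (4.36%) with *Gm20496*, and *Tap2* a further 533 (14.1%) with *Gm15821*, likewise on the opposite strand, while *Tapbp* shared 61 (1.85%) with *Zbtb22* on the same strand. The alignment was described as reverse stranded, and a strand setting for the counting step was not named.

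Each immunoproteasome subunit was set against the constitutive subunit whose place it takes. Like the other ratios per kb given here, the percents depend on the annotated exon lengths. These were 2736 bases for *Psmb8* and 922 for *Psmb5*, 3660 for *Psmb9* and 1872 for *Psmb6*, and 1270 for *Psmb10* and 1214 for *Psmb7*. Percents of different pairs are thus not comparable in level, while the comparison of libraries within a pair does not depend on these lengths. Per kb, *Psmb8* stood at 21.2% and 8.27% of *Psmb5* in WT and at 19.2% and 9.02% in *Phf2* KO. *Psmb9* stood at 1.38% and 0.605% of *Psmb6* in WT and at 0.902% and 0.657% in *Phf2* KO. For both subunits the replicates 1 were above the replicates 2 and the groups overlapped. *Psmb10*, the remaining exchanged subunit, stood at 24.2% and 23.1% of *Psmb7* in WT and at 33.3% and 25.8% in *Phf2* KO. Here both *Phf2* KO libraries lay above both WT libraries. The CPM of *Psmb10* had this arrangement too, as did that of 15.5% of all genes tested. Its adjusted p was 0.999 in edgeR's quasi-likelihood test on genotype alone.

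**Figure D2:**
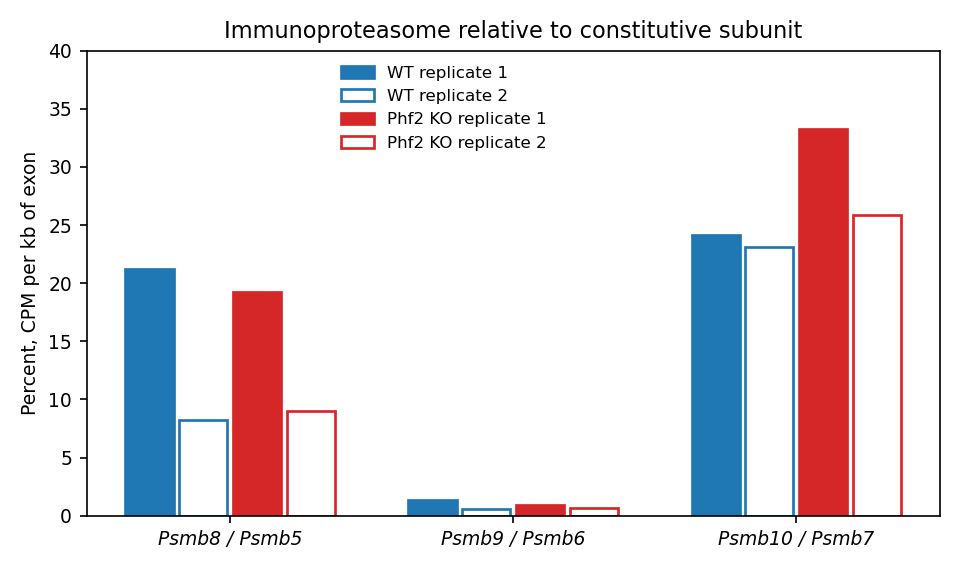
Each immunoproteasome subunit as a percent of its constitutive counterpart, in CPM per kb of exon, with 1 bar per library. The level of each pair depends on its annotated exon lengths. *Psmb8* and *Psmb9* bars are higher in replicate 1 (filled) than in replicate 2 (open) of either group, and *Psmb10* reaches 33.3% in *Phf2* KO replicate 1.

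*Erap1* (chr13:74777320-74829983, plus strand, 19 exon blocks) encodes the aminopeptidase that trims peptides in the endoplasmic reticulum. It gave 455 and 451 counts from WT and 423 from each *Phf2* KO library, or 18.9, 17.4, 20.4 and 17.6 CPM. The groups overlapped, with means of 18.1 ± 1.06 and 19.01 ± 1.99 CPM (SD, n = 2) and a log2 fold change of 0.07 (SE 0.13, 95% interval -0.28 to 0.42). *Nlrc5* (chr8:96996663-97051172, plus strand, 48 exon blocks) encodes the transactivator of class I genes. It gave 116 and 40 counts in the WT libraries, and 90 and 56 in those of *Phf2* KO, or 4.81, 1.54, 4.34 and 2.33 CPM. WT held both the highest and the lowest library. Its mean was 3.18 ± 2.31 CPM in WT and 3.34 ± 1.42 CPM in *Phf2* KO (SD, n = 2), and its log2 fold change of 0.07 was the least certain of the 10 (SE 0.63, 95% interval -1.61 to 1.75).

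The 95% intervals give the sizes of change compatible with the fit on genotype alone, which leaves the difference between replicates in its error. For *Tap1*, *Tap2*, *B2m*, *Tapbp* and *Erap1* the 95% intervals of the fold change stayed between 0.822 and 1.37. For *H2-K1* the interval ran from 0.532 to 2.11-fold, for *H2-D1* from 0.398 to 2.88-fold, for *Psmb8* from 0.408 to 3.29-fold, for *Psmb9* from 0.365 to 2.16-fold and for *Nlrc5* from 0.328 to 3.36-fold. These intervals are not limits of detection. The interval of *Phf2* itself, 0.447 to 0.749-fold, did not include equal levels, yet its adjusted p was 0.999 in edgeR's quasi-likelihood test on genotype alone. With the replicate number added to the fit, the same test called *Phf2* lower. Its log2 fold change was then -0.80 and its adjusted p 7.67e-19, though the labels do not state that the numbers pair the libraries.

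Because replicate 1 and replicate 2 differed in sex in both groups, *Phf2* KO was also set against WT within each number, as a description with 1 library a side. Within both numbers 5 of the 10 genes were higher in *Phf2* KO (*H2-D1*, *B2m*, *Tap1*, *Psmb8* and *Erap1*) and 0 were lower, whereas 32.6% of all genes were higher in both and 30.2% lower in both. *B2m* was 0.10 and 0.12 log2 units higher within replicates 1 and 2, with a counting SE of 0.014 for each. The other 5 genes moved in opposite directions, as for *H2-K1* with 0.20 and -0.11, *Psmb9* with -0.34 and 0.14, and *Nlrc5* with -0.15 and 0.60. For the last of these the counting SEs were 0.20 and 0.30.

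**Figure D3:**
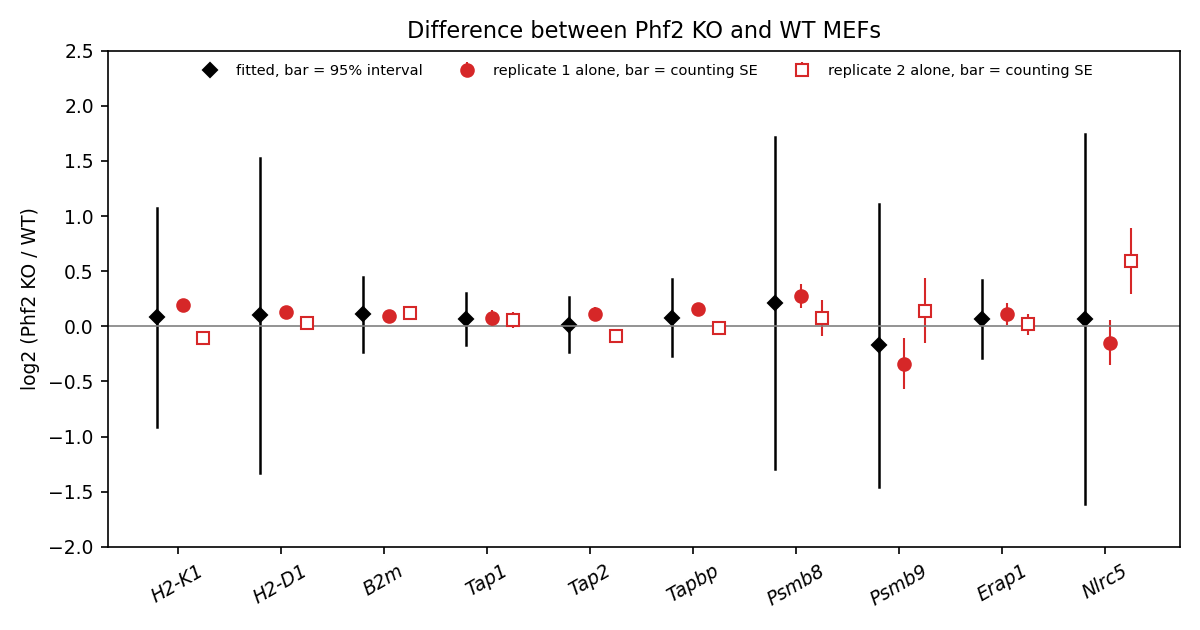
Log2 ratio of *Phf2* KO to WT for the 10 genes, with black diamonds for the fitted change and its 95% interval and red symbols for replicates 1 (filled) and 2 (open) alone with the SE from counting. Every fitted interval crosses 0, and the widest belong to *Nlrc5*, *Psmb8* and *H2-D1*.

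Within groups, the 10 genes fell into 5 that differed between replicates and 5 that hardly did. *H2-K1*, *H2-D1*, *Psmb8*, *Psmb9* and *Nlrc5* were over 0.5 log2 units higher in replicate 1 than in replicate 2 in both groups, which 7.21% of all genes tested also were. Their replicate differences were 0.63 (WT) and 0.93 (*Phf2* KO) for *H2-K1*, 1.11 and 1.21 for *H2-D1*, 1.10 and 1.3 for *Psmb8*, 1.15 and 0.67 for *Psmb9*, and 1.64 and 0.90 for *Nlrc5*. These include the classical heavy chains, both immunoproteasome subunits and the transactivator. In contrast *B2m*, *Tap1*, *Tap2*, *Tapbp* and *Erap1* differed by at most 0.30 log2 units between replicates. Altogether 8 of the 10 genes were higher in replicate 1 in both groups (32.7% of all genes) and 0 were lower in both (35.9% of all genes). No test was run on the replicate difference, which rests on 1 library per number in each group.

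Markers of macrophages moved with the replicate number in the same way. Of 21 macrophage markers, 20 passed the filter on low counts, and all 20 were over 0.5 log2 units higher in replicate 1 in both groups, with median differences of 2.28 in WT and 1.80 in *Phf2* KO. Their summed level was 4761 and 1031 CPM in WT and 5263 and 1592 CPM in *Phf2* KO. None of the 21 was at 0 in any library. The sum, higher in *Phf2* KO for both numbers, was led by *Lyz2*, at 1325 and 315 CPM in WT and 1726 and 574 CPM in *Phf2* KO. Not all markers followed it: *Cd68*, *Mpeg1* and *Mrc1*, for example, were lower in *Phf2* KO within replicate 1. The median log2 fold change of the 20 markers between genotypes was 0.08, with 13 above 0 and 7 below. The range of the sums overlapped between groups. Markers of T and B cells summed to 1.21 to 1.99 CPM, with 6 of 9 markers at 3 counts or fewer in every library, and dendritic cell markers to 2.36 to 3.20 CPM. Endothelial markers summed to 22.03 and 12.0 CPM in WT and 16.2 and 9.48 CPM in *Phf2* KO, mostly *Kdr*. The part of these cells, or of sex, in the replicate difference of the class I genes was not tested, and in bulk RNA fewer cells of a type and less RNA per cell cannot be told apart.

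**Figure D4:**
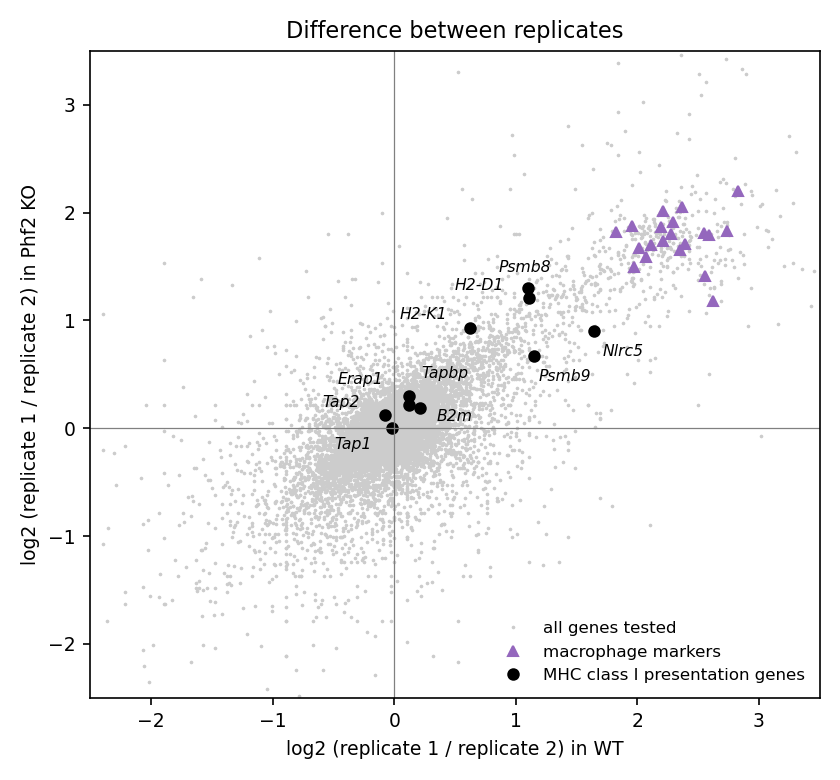
Log2 ratio of replicate 1 to replicate 2 in WT (horizontal) and in *Phf2* KO (vertical) for 13602 of the 13668 genes tested (grey), 20 macrophage markers (purple triangles) and the 10 class I presentation genes (black). The remaining 66 genes lie beyond the axes or have 0 counts in a library. *Tap1* and *Tap2* lie near the origin, *Nlrc5*, *Psmb9*, *Psmb8*, *H2-D1* and *H2-K1* lie at upper right, and the macrophage markers lie further out.

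Leaving out 1 library turned the direction of the fitted difference for every one of the 10 genes except *Tap1*. Each such fit sets a lone library against 2 that differ in replicate number and sex, so the replicate difference enters the fitted difference. A turn of direction therefore cannot by itself show how stable the genotype difference is. Within replicates 1 and 2, *H2-D1* was 0.13 and 0.03 log2 units higher in *Phf2* KO. *H2-D1* went from 0.77 without WT replicate 1 and 0.58 without *Phf2* KO replicate 2 to -0.37 without WT replicate 2 and -0.63 without *Phf2* KO replicate 1. *Nlrc5* went from 1.12 without WT replicate 1 to -0.55 without WT replicate 2. *Tap1* stayed between 0.06 and 0.07 whichever library was left out.

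The pattern over the 4 libraries, averaged over the 10 genes as centred log2 CPM, was 0.26 and -0.34 for replicates 1 and 2 of WT and 0.33 and -0.25 for those of *Phf2* KO. Among 10232 other genes with a mean of at least 5 CPM, the nearest by root mean square distance over the 4 libraries were *Nrp2* (0.0145 log2 units), *6430548M08Rik* (0.0204), *Spag5* (0.0207), *Tuft1* (0.0228) and *Jade2* (0.0245). In all, 25 genes lay within 0.05 log2 units and 156 within 0.1. The average mixes the 5 genes that differed between replicates with the 5 that hardly did. Genes near it therefore need not resemble any single one of the 10.

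The rest of the path was described with 81 further genes, of which 57 passed the filter. In fits on genotype alone, none was called in either direction by edgeR, DESeq2 or limma-voom. At an unadjusted p under 0.05, edgeR counted 1, *Rfxap*. With the replicate number added to the fit, edgeR called 4 higher and 1 lower, as given in the last section. Of the 57, 36 had a log2 fold change above 0 and 21 below, with a median of 0.07 and a range of -0.47 to 0.71. The ends of this range were *Cd74* and *Ciita*, both under 1 CPM in every library. By list, the median was 0.13 for 9 other class I heavy chains, -0.11 for 5 loading chaperones, 0.00 for 9 proteasome subunits and activators, 0.01 for 7 peptidases, 0.10 for 11 transcription factors of class I genes, 0.07 for 12 genes of interferon signalling and -0.07 for 4 class II genes. Above 0 were 8 of the 9 heavy chains, 1 of the 5 chaperones, 5 of the 9 proteasome genes, 4 of the 7 peptidases, 10 of the 11 transcription factors, 7 of the 12 signalling genes and 1 of the 4 class II genes, beside 7003 of all 13668 genes.

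**Figure D5:**
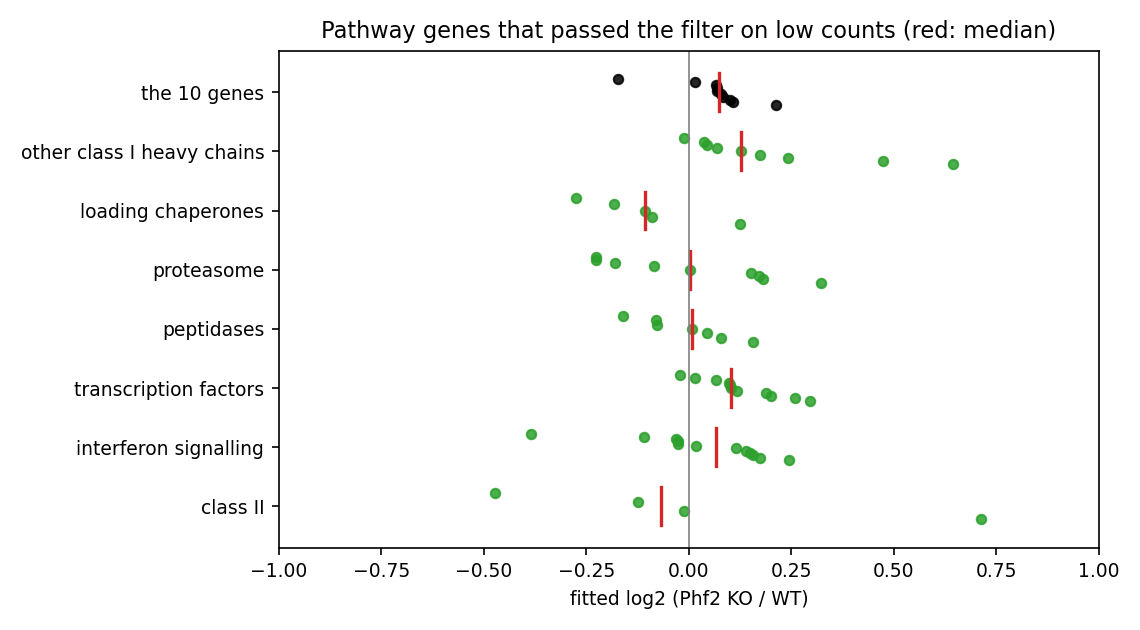
Fitted log2 ratio of *Phf2* KO to WT for the 10 genes (black) and for the genes of each further list that passed the filter on low counts (green), with 1 point per gene and the median in red. Medians lie between -0.11 and 0.13, and the most distant points belong to the class II list, from -0.47 to 0.71. These are *Cd74* and *Ciita*, with only 8 to 23 and 9 to 18 counts per library.

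Some of these genes were named by their level or size of change. *H2-T23*, a non-classical heavy chain, was the most abundant of its list at 30.2 ± 7.11 CPM in WT and 31.2 ± 10.0 CPM in *Phf2* KO (SD, n = 2), and its replicate differences of 0.48 and 0.67 resembled those of *H2-K1*. *H2-Q4* gave 67 and 38 counts in the WT libraries, and 92 and 53 in those of *Phf2* KO, a log2 fold change of 0.64 (SE 0.50). Of the 50-base windows in their exons, 69.7% for *H2-Q4* and 67.2% for *H2-T23* occurred once in the genome, so reads can be shared with related genes. Of the exchanged proteasome subunits, *Psmb10* gave 626 and 587 counts in the WT libraries, and 699 and 649 in those of *Phf2* KO, with 24.3 ± 2.37 and 30.4 ± 4.76 CPM (SD, n = 2) and a log2 fold change of 0.32 (SE 0.16). Among constitutive parts, *Psme3*, a nuclear proteasome activator, went the other way at -0.23 (SE 0.11), and *Psmb6*, with the highest CPM of the list before scaling to length, stood at 0.15 (SE 0.11). None of these passed the test on genotype alone.

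*Rfxap*, a subunit of the RFX complex that binds class I and class II promoters, gave 491 and 557 counts in the WT libraries, and 554 and 591 in those of *Phf2* KO. Its level was 20.9 ± 0.774 CPM in WT and 25.7 ± 1.52 CPM in *Phf2* KO (SD, n = 2), a log2 fold change of 0.29 (SE 0.11, unadjusted p 0.0450, adjusted p 0.999 in edgeR's quasi-likelihood test). *Irf1*, an interferon regulatory factor that acts on *Psmb9* and *Tap1*, was at 24.97 ± 2.23 and 29.9 ± 1.46 CPM (SD, n = 2), with a log2 fold change of 0.26 (SE 0.12). For either gene, both *Phf2* KO libraries lay above both WT libraries, as they did for 15.5% of all genes tested. *Rela*, the kappa B factor subunit and most abundant of the list, had a log2 fold change of 0.07 (SE 0.098).

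In interferon signalling, *Jak1*, with the highest CPM before scaling to length, had a log2 fold change of 0.14 (SE 0.11), and *Socs1*, a feedback inhibitor of this signalling, one of -0.38 (SE 0.18) from 5.11 ± 0.186 CPM in WT and 3.91 ± 0.0629 CPM in *Phf2* KO (SD, n = 2). The chaperone calreticulin, *Calr*, stood at 0.13 (SE 0.098) and *Tapbpl*, a relative of tapasin that edits peptides, at -0.27 (SE 0.13) with 17.8 ± 1.29 against 14.7 ± 0.813 CPM (SD, n = 2). The peptidases *Nrd1* and *Lnpep*, the most abundant and the most changed of their list, stood at 0.16 (SE 0.081) and -0.16 (SE 0.15). Of the class II genes, 3 of 10 had no count in any library, and *H2-DMa* and *H2-DMb1*, which load peptides on class II molecules, stood at -0.01 (SE 0.18) and -0.12 (SE 0.38). None of these was past the threshold.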

How the data were processed

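The deposited counts are whole numbers of reads per gene symbol, without normalization. To make them, the authors used Trim Galore for trimming, Bowtie2 against ribosomal RNA, STAR for alignment to mm9 and featureCounts, and tool versions were not given in the sources used here. Their deposited DESeq2 table (mean normalized count, log2 fold change and its shrunken form, SE, Wald statistic, p-values) was not used. The analysis used edgeR 4.0.16 under R 4.3.3: filterByExpr, TMM, glmQLFit and glmQLFTest on genotype, p-values being adjusted by Benjamini-Hochberg over 13668 genes and called under 0.1. Alternatives were limma-voom (3.58.1), DESeq2 1.42.0, other scaling, filters and thresholds, the replicate number as a block, and each library left out. CPM used TMM-scaled library sizes. The fit was tested on simulated data. Description and figures used Matplotlib 3.10.9, pandas 2.3.3 and NumPy 2.4.6 under Python 3.11.15. Positions follow NCBIM37 (mm9), promoter sequences RefSeq (GRCm38.p6), and coordinates of the builds were not mixed. The 10 genes and the further lists were chosen with earlier results of these data known. Of the further lists, genes were named when called with or without the block, or when of the highest level or largest change (mean of at least 1 CPM) in their list.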

Additional observations from a re-analysis of the deposited data

How the results depend on the processing

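Across 13 alternatives, 0 of the 10 genes was called in either direction and 0 reached an unadjusted p under 0.05. The lowest adjusted p of any of them was 0.511. Without each library in turn, where a lone library is assumed to vary like the other group, the log2 fold changes ranged from -0.46 to 0.47 for *H2-K1*, -0.63 to 0.77 for *H2-D1*, -0.01 to 0.23 for *B2m*, 0.06 to 0.07 for *Tap1*, -0.05 to 0.07 for *Tap2*, -0.08 to 0.22 for *Tapbp*, -0.58 to 0.87 for *Psmb8*, -0.65 to 0.52 for *Psmb9*, -0.04 to 0.17 for *Erap1* and -0.55 to 1.12 for *Nlrc5*, and no further gene of the path was called. DESeq2 called 10 genes higher and 54 lower over the whole table, against 0 and 1 in edgeR.

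The replicate numbers are not stated to pair the libraries. Across 11556 genes, which are not independent replicates, replicate 1 minus replicate 2 on the log2 scale correlated between WT and *Phf2* KO at a Pearson's r of 0.854. With the replicate block, edgeR called 789 genes higher (5.77%) and 711 lower (5.2%), still 0 of the 10 (lowest adjusted p 0.511, *Psmb8*), and of the 57 further genes 4 higher (*H2-Q4*, *Psmb10*, *Rfxap* and *Irf1*) and 1 lower (*Psme3*). With the block in DESeq2, an alternative chosen after seeing the data, 175 (2.16%) of 8085 genes with an adjusted p were higher and 122 (1.51%) lower, and these held no gene of the path; *Psmb8*, *Psmb9* and *Nlrc5* got no adjusted p there. The common dispersion fell from 0.0451 to 0.00363 with the block. The SE of the log2 fold change fell with it from 0.38 to 0.083 for *H2-K1*, from 0.54 to 0.084 for *H2-D1*, from 0.57 to 0.14 for *Psmb8*, from 0.48 to 0.23 for *Psmb9* and from 0.63 to 0.22 for *Nlrc5*. Of the 20 macrophage markers, 8 were called higher and 0 lower with the block. Among the 9 fibroblast markers 0 were called higher and 1 lower (*Lum*). Of the 2 endothelial markers that passed the filter, 0 were called higher and 1 lower (*Kdr*). Low counts limit *Psmb9* and *Nlrc5* in either fit.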
